A study of Mus musculus with 13 samples.

Results

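Serine and one-carbon metabolism enzymes turn a glycolytic intermediate into serine, pass a carbon unit of serine to folate, and use the loaded folates to build purines and thymidylate. The genes described here are Phgdh, Psat1 and Psph of serine synthesis, Shmt1 and Shmt2, which cleave serine to glycine, Mthfd1, Mthfd2 and Mthfd1l, which interconvert the folates, and Asns, which makes asparagine. They were chosen by gene symbol, with earlier results of these data known. Every probe set of the array that is assigned to one of these 9 genes alone was used, which gave 23 of the 45037 probe sets tested. A further 2 probe sets that are assigned to Phgdh together with another gene were not used. The probe set of a gene whose mean over the 13 arrays is highest is called its leading probe set.

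RNA of CD8+ T cells was measured on 13 oligonucleotide arrays. The cells came from Batf-/- or wild-type mice, both on the C57Bl/6 background and both carrying the P14 transgenic T cell receptor, so that most CD8+ T cells of either genotype share a single specificity. The day 3 groups, Batf-/- (4 arrays) and wild type (4 arrays), had been stimulated through CD3 and CD28 by antibodies fixed to the plate, for 3 days, with recombinant human IL-2 at 100 U/ml. The naive groups, Batf-/- (3 arrays) and wild type (2 arrays), are day 0 cells. All cells were enriched by magnetic removal of other cells. Batf is an AP-1 transcription factor that acts with Irf4 in activated lymphocytes, and the labels name no Cre or promoter that would limit its loss to T cells. The ages of the mice are not given. Whether arrays of the same group stand for different mice is also not stated, and the p-values then describe only how far arrays spread, which may be technical.

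Cells that enter division need nucleotides, glycine and methyl groups, and in T cells the mitochondrial branch of the folate pathway is known to be raised after activation. In that branch Shmt2 loads folate from serine, Mthfd2 oxidises the loaded folate, and Mthfd1l releases formate, which leaves the mitochondrion and is picked up in the cytosol by Mthfd1. In mammalian cells short of amino acids, the transcription factor Atf4 is known to activate Phgdh, Psat1, Psph, Shmt2, Mthfd2 and Asns.

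Promoter sequences are shown for Asns, whose promoter is a textbook case of Atf4 control and held the only motif match among the 9 genes, and for Psat1 and Mthfd2, whose RNA changed the most. They come from RefSeq (build GRCm38.p6), which gave 10 promoters for the 9 genes, each reaching from 250 bases before to 50 bases after the start and printed along the strand of the gene. Capitals mark a match to the composite element of ATF4 and C/EBP factors, searched as TGATGNAA on both strands.

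Asns (chr6:7693160-7693459, minus strand): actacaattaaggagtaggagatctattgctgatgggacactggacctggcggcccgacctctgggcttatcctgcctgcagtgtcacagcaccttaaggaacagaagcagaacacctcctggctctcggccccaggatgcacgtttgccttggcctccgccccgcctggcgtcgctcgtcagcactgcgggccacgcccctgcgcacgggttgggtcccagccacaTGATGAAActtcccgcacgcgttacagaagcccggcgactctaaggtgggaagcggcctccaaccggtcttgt
Psat1, upstream start (chr19:15925010-15925309, minus strand): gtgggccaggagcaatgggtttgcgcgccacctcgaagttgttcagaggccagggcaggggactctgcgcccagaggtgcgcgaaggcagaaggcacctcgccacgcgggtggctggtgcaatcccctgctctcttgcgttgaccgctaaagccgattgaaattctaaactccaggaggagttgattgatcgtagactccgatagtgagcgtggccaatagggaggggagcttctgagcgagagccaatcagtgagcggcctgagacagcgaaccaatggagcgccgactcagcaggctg
Psat1, downstream start (chr19:15924573-15924872, minus strand): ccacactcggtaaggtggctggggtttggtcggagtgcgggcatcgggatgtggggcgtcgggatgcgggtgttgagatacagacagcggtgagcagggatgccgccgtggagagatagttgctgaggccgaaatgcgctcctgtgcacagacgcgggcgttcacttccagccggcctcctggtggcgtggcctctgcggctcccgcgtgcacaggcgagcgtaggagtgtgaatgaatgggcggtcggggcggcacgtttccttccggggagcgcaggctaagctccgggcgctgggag
Mthfd2 (chr6:83317555-83317854, minus strand): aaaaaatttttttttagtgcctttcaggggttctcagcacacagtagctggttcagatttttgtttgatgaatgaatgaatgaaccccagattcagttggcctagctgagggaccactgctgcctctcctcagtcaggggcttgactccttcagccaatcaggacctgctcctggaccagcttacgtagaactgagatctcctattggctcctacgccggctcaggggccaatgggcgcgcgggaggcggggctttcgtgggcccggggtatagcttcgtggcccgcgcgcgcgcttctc

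The match in Asns begins 23 bases before the start, and 3.97% of all 32851 promoters held this motif. The AP-1 motif TGANTCA, which Batf and Jun proteins can bind, was found in none of the 10 promoters and in 7.81% of all, and the E-box CACGTG, which Myc can bind, in none of the 10 and in 7.15% of all. None of the 3 motifs overlaps another here. The absence of a match concerns these letters in these windows only.

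Values are probe set intensities on the log2 scale, and each is a level relative to the other probe sets of the same array, since the authors equalised the arrays. Batf itself, measured by a probe set whose place relative to the deletion is not stated, was between 5.56 and 6.77 in all 7 Batf-/- arrays and between 8.63 and 9.36 in all 6 wild-type arrays. The T cell list (Cd3e, Cd3d, Cd8a and Cd8b1 were measured) averaged between 11.71 and 11.94 at day 3. In naive cells it averaged 11.73, 12.22 and 12.17 in Batf-/- and 12.24 and 12.11 in wild-type arrays. Markers of other cells were higher in naive than in day 3 arrays, and Batf-/- naive replicate 1 stood apart with a neutrophil marker mean of 7.83, against 4.51 and 5.30 in Batf-/- naive replicates 2 and 3 and 5.26 and 4.81 in wild-type naive cells. That array was the lowest naive array for T cell markers and the highest for NK cell (8.22), erythroid (6.97) and monocyte, macrophage and dendritic cell markers, where its mean of 6.89 stood against 5.93 and 6.40 in Batf-/- naive replicates 2 and 3 and 6.09 and 6.12 in wild-type naive cells. At day 3 the neutrophil means were between 3.95 and 4.05, near the bottom of the scale, and 40% of all probe sets had means below 4.35. None of the 23 probe sets had a group mean below that limit.

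The comparison of day 3 with naive cells asks how stimulation changed these enzymes, in each genotype on its own. The 3 genes of serine synthesis, the mitochondrial folate genes Mthfd2 and Mthfd1l, and Shmt1 rose with stimulation in both genotypes, Mthfd1 fell, and Asns and the leading probe set of Shmt2 did not pass the test. By leading probe sets, 6 of 9 genes rose, 1 fell and 2 did not pass in Batf-/- cells, and the counts in wild-type cells were also 6, 1 and 2. The groups did not overlap for 18 of 23 probe sets in each genotype, against 40.7% of all probe sets in Batf-/- and 53.1% in wild-type cells. Among all 18193 genes, 22.5% were called higher and 22.4% lower in Batf-/- cells, and 21.5% and 22.2% in wild-type cells. The median change of the 9 genes was 0.72 in Batf-/- and 0.61 in wild-type cells, against 0.05 over all genes in each genotype. Over all probe sets of the members, 17 of 23 passed in each genotype, 14 higher and 3 lower, where 38.3% of all probe sets passed in Batf-/- cells and 38.6% in wild-type cells. Probe sets of a gene read the same RNA and are not independent. As the genes were chosen with earlier results of these data known, the shares over all genes are no independent test of the set.

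**Figure D1:**
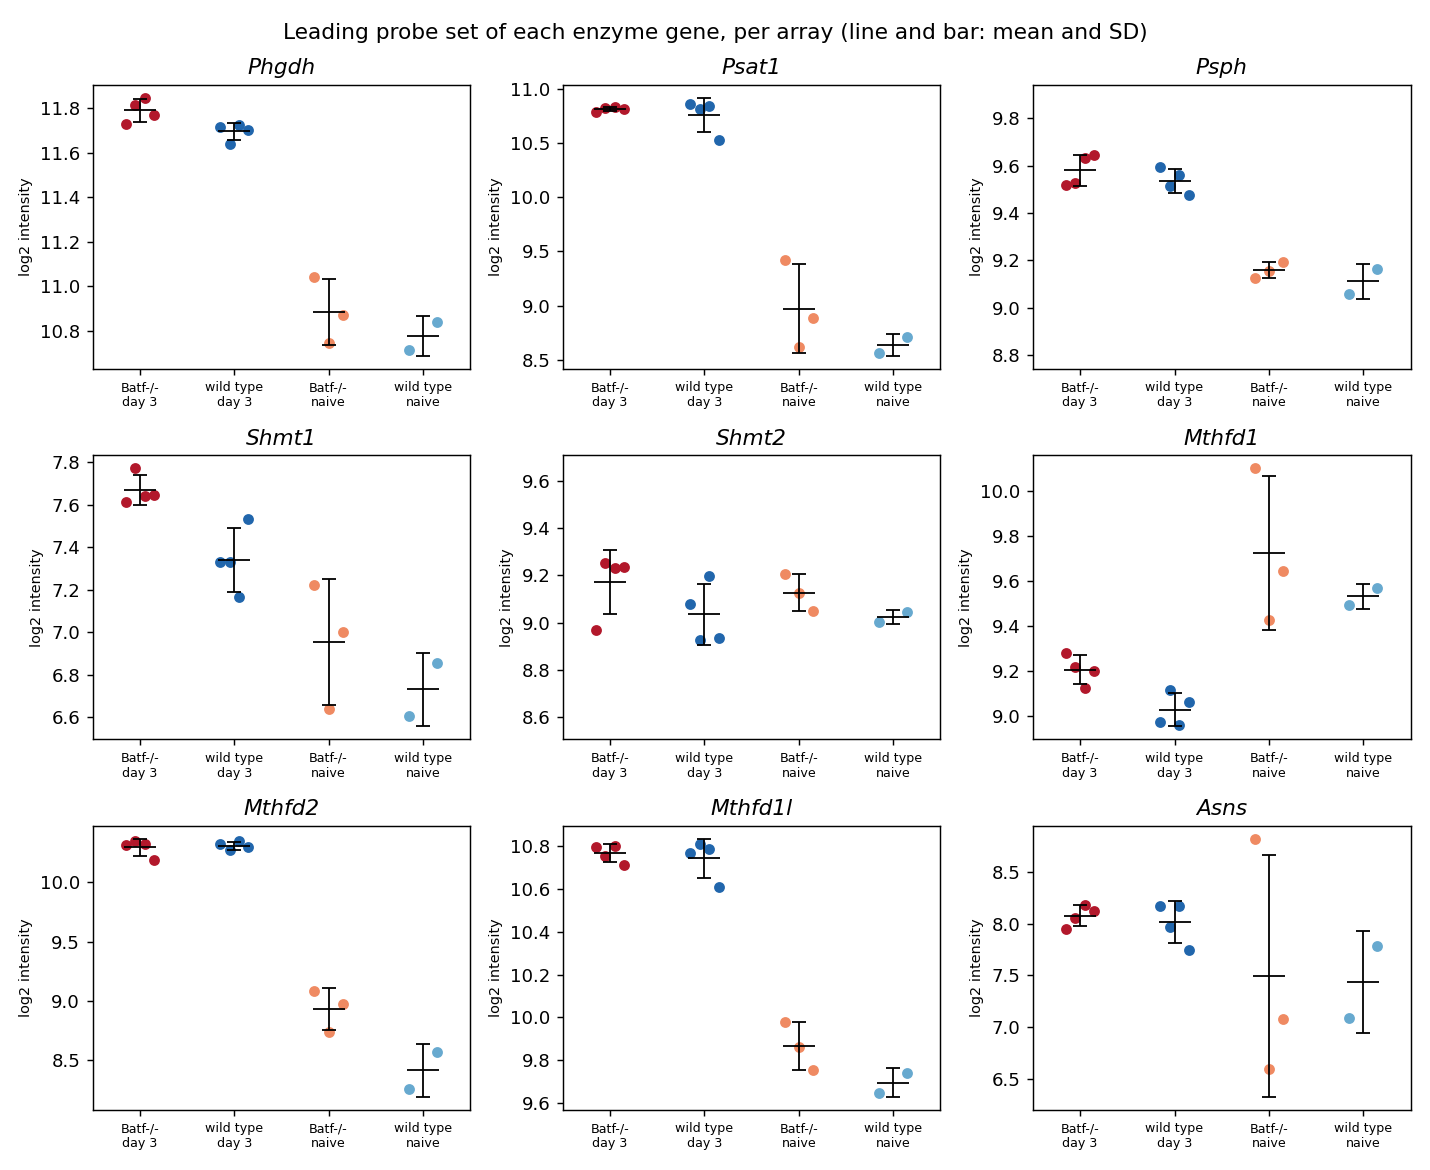
The log2 intensity of the leading probe set of each of the 9 genes is plotted for every array, with the group on the horizontal axis and a line and bar for the mean and SD. Psat1, Mthfd2, Mthfd1l, Phgdh and Psph are higher in every day 3 array than in any naive array, Mthfd1 is lower in every day 3 array, and Asns is highest in Batf-/- naive replicate 1 at 8.82.

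Psat1, the aminotransferase of the serine pathway, had the largest change. Its log2 intensities were 10.79, 10.83, 10.84 and 10.82 in Batf-/- day 3 arrays and 10.86, 10.82, 10.85 and 10.53 in wild-type day 3 arrays. In naive cells they were 9.42, 8.62 and 8.88 for Batf-/- and 8.56 and 8.71 for wild type. Every day 3 array lay above every naive array. The change was 1.85 ± 0.15 in Batf-/- cells (SE, n = 4 and 3, limma adjusted p = 2.01e-07), a 3.60-fold rise, and 2.12 ± 0.16 in wild-type cells (n = 4 and 2, limma adjusted p = 2.05e-07), a 4.36-fold rise. Its other probe set rose by 1.57 in Batf-/- and 1.80 in wild-type cells.

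Phgdh, the dehydrogenase of the step that commits 3-phosphoglycerate to serine, rose in both genotypes. It stood at 11.73, 11.81, 11.85 and 11.77 in Batf-/- day 3 arrays and at 11.72, 11.64, 11.72 and 11.70 in wild-type day 3 arrays, against 11.04, 10.74 and 10.87 in Batf-/- naive and 10.71 and 10.84 in wild-type naive arrays. The day 3 and naive arrays did not overlap. The change was 0.90 ± 0.08 (limma adjusted p = 3.4e-07) in Batf-/- cells and 0.92 ± 0.09 (limma adjusted p = 1.08e-06) in wild-type cells. Its 4 probe sets all rose, by 0.84 to 0.93 in Batf-/- cells and by 0.83 to 1.13 in wild-type cells.

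Psph, the phosphatase that releases serine, has 1 probe set and rose by 0.42 ± 0.06 in Batf-/- cells (limma adjusted p = 0.000103) and by 0.42 ± 0.07 in wild-type cells (limma adjusted p = 0.000291). Its values were 9.52 to 9.64 in Batf-/- day 3 and 9.48 to 9.59 in wild-type day 3 arrays, against 9.13 to 9.19 in Batf-/- naive and 9.06 and 9.16 in wild-type naive arrays. These groups were separate as well, with a rise of 1.34-fold in each genotype.

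Mthfd2, the mitochondrial dehydrogenase and cyclohydrolase of the folate pathway, was the other large rise. It was at 10.31, 10.35, 10.33 and 10.19 in Batf-/- day 3 arrays and at 10.32, 10.27, 10.34 and 10.29 in wild-type day 3 arrays. Naive values were 9.08, 8.74 and 8.97 in Batf-/- cells and 8.26 and 8.57 in wild-type cells. The 8 day 3 arrays of both genotypes lay within a narrow band. The naive groups did not overlap, as was so for 24.9% of all probe sets, and their difference did not pass (limma adjusted p = 0.0529). The change was 1.36 ± 0.09 in Batf-/- cells (2.57-fold, limma adjusted p = 4.79e-08) and 1.89 ± 0.10 in wild-type cells (3.71-fold, limma adjusted p = 7.91e-09). The other probe set changed by 1.48 in Batf-/- and 1.72 in wild-type cells.

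Mthfd1l, the mitochondrial formate-producing synthetase, has 1 probe set. Its levels were 10.79, 10.76, 10.80 and 10.71 in Batf-/- day 3 and 10.77, 10.81, 10.79 and 10.61 in wild-type day 3 arrays, against 9.98, 9.86 and 9.75 in Batf-/- naive and 9.65 and 9.74 in wild-type naive arrays. All day 3 arrays were above all naive arrays. It rose by 0.90 ± 0.07 in Batf-/- cells (limma adjusted p = 2.93e-07) and by 1.05 ± 0.08 in wild-type cells (limma adjusted p = 2.65e-07).

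Mthfd1, the cytosolic enzyme that carries 3 activities and takes up the formate, went the other way from its mitochondrial relatives. It was at 9.28, 9.22, 9.12 and 9.20 in Batf-/- day 3 and 8.97, 9.12, 8.96 and 9.06 in wild-type day 3 arrays, against 10.10, 9.43 and 9.64 in Batf-/- naive and 9.49 and 9.57 in wild-type naive arrays. The naive arrays were all higher, and Batf-/- naive replicate 1 was the highest. The change was -0.52 ± 0.12 in Batf-/- cells (1.43-fold lower, limma adjusted p = 0.00327) and -0.50 ± 0.14 in wild-type cells (1.42-fold lower, limma adjusted p = 0.00911). All 3 probe sets fell, with changes of -0.70 to -0.52 in Batf-/- and -0.73 to -0.50 in wild-type cells. Without Batf-/- naive replicate 1 the Mthfd1 change in Batf-/- cells was -0.33 (limma adjusted p = 0.00558) for the leading probe set and -0.20 (limma adjusted p = 0.0841) for another, and without wild-type naive replicate 2 the wild-type change of the leading probe set was -0.46 and not called (limma adjusted p = 0.0742).

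The serine hydroxymethyltransferases depended on the probe set. The leading probe set of Shmt1, the cytosolic enzyme, was at 7.61 to 7.77 in Batf-/- day 3 and 7.17 to 7.53 in wild-type day 3 arrays, against 6.64 to 7.22 in Batf-/- naive and 6.61 and 6.85 in wild-type naive arrays. It rose by 0.72 ± 0.12 in Batf-/- cells (limma adjusted p = 0.000333) and by 0.61 ± 0.14 in wild-type cells (limma adjusted p = 0.00301), and 3 of its 4 probe sets passed in each genotype. The remaining Shmt1 probe set was at 0.06 in Batf-/- and 0.12 in wild-type cells. Day 3 and naive arrays of a genotype did not overlap for the leading probe set. Its wild-type call was lost without wild-type naive replicate 1 (0.49, limma adjusted p = 0.0552), and that of a second Shmt1 probe set was lost without either wild-type naive array (limma adjusted p = 0.0707 and 0.102).

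Shmt2, the mitochondrial enzyme, had a leading probe set with 8.97 to 9.25 in Batf-/- day 3 and 8.93 to 9.20 in wild-type day 3 arrays, against 9.05 to 9.21 in Batf-/- naive and 9.0 and 9.04 in wild-type naive arrays. The groups overlapped, and the difference was 0.05 in Batf-/- cells (95% interval -0.15 to 0.24) and 0.01 in wild-type cells (-0.21 to 0.23). Of its 4 probe sets 1 rose, by 0.48 ± 0.08 in Batf-/- cells (limma adjusted p = 0.000133) and 0.58 ± 0.09 in wild-type cells (limma adjusted p = 7.97e-05). The remaining 2 differed by 0.19 and 0.24 in Batf-/- cells and by 0.07 and 0.13 in wild-type cells and did not pass. For the mean over the 4 probe sets Shmt2 passed in both genotypes, with 0.24 in Batf-/- cells (limma adjusted p = 0.00889) and 0.20 in wild-type cells (limma adjusted p = 0.0452).

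Asns, which makes asparagine from aspartate and glutamine, had even levels at day 3 and scattered levels in naive cells. It was at 7.95, 8.05, 8.18 and 8.12 in Batf-/- day 3 arrays and at 8.17, 7.97, 8.17 and 7.74 in wild-type day 3 arrays. Naive values were 8.82, 6.60 and 7.08 in Batf-/- cells and 7.09 and 7.78 in wild-type cells. Batf-/- naive replicate 1 had the highest Asns level of all 13 arrays, and replicate 2 had the lowest. The change was 0.58 ± 0.37 in Batf-/- cells (limma adjusted p = 0.252) and 0.58 ± 0.42 in wild-type cells (limma adjusted p = 0.318). Without Batf-/- naive replicate 1, the array with the most RNA of neutrophil, NK cell, erythroid and monocyte markers, the Asns change was 1.24 in Batf-/- cells (limma adjusted p = 0.000106) and 0.58 in wild-type cells (limma adjusted p = 0.0218), both past the threshold. The array left out is in no wild-type group, so the wild-type change itself did not move. Only the spread pooled over the 4 groups and the adjustment differed there. Of 10 other settings, array weights gave a call in Batf-/- cells (0.95, limma adjusted p = 0.00318), and the 2 compared groups alone gave one in wild-type cells (0.58, limma adjusted p = 0.0439), with adjusted p up to 0.344 in Batf-/- and 0.351 in wild-type cells over the 10. In the second Asns probe set Batf-/- naive replicate 1 was again the highest and replicate 2 the lowest, at 8.73, 6.22 and 6.85 in Batf-/- naive and 6.73 and 7.54 in wild-type naive cells. Whether RNA of other cells takes part in the naive Asns levels was not tested.

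**Figure D2:**
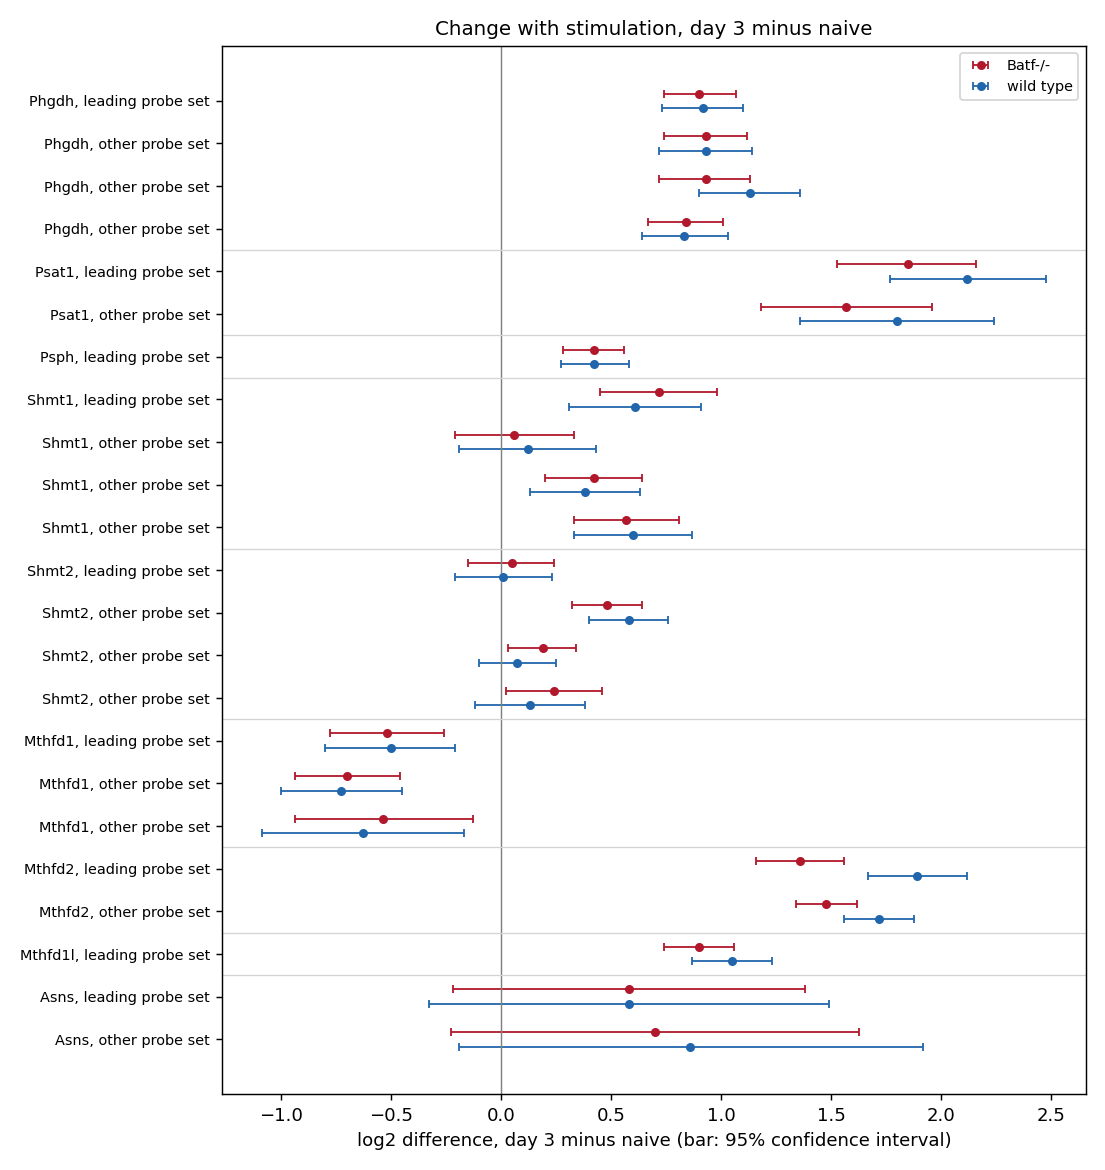
The log2 difference of day 3 minus naive is shown for each of the 23 probe sets, with its 95% confidence interval, for Batf-/- and wild-type cells. The 3 probe sets of Mthfd1 lie left of 0 and those of Phgdh, Psat1, Mthfd2 and Mthfd1l right of it in both genotypes, and the intervals of Asns are the widest, from -0.22 to 1.38 in Batf-/- and from -0.33 to 1.49 in wild-type cells for its leading probe set.

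Fewer cells of a type and less RNA per cell cannot be told apart in these preparations. Markers of other cells fell with stimulation, 8 of 9 for B cells, 5 of 5 for NK cells, 7 of 9 for neutrophils, 7 of 9 for monocytes, macrophages and dendritic cells, and 3 of 4 for erythroid cells in Batf-/- cells, and 6 of 9, 5 of 5, 2 of 9, 6 of 9 and 3 of 4 of the same lists in wild-type cells. Over all genes 22.4% were called lower in Batf-/- and 22.2% in wild-type cells, and the 2 of 9 neutrophil markers in wild-type cells are near that share. Of the 4 T cell markers, Cd8a and Cd8b1 fell in both genotypes. The B cell list had means between 4.83 and 5.0 at day 3 in Batf-/- cells and between 4.86 and 4.94 in wild-type cells, against 6.94 to 7.43 in Batf-/- naive and 6.10 and 6.55 in wild-type naive cells. Their part in the stimulation changes was not tested.

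Other genes of folate metabolism changed in both directions. Of 15 measured folate cycle genes, 4 rose, 7 fell and 4 did not pass in Batf-/- cells, and 3 rose, 6 fell and 6 did not pass in wild-type cells, with a median of -0.20 in each. Among all genes 22.5% rose and 22.4% fell in Batf-/- cells, and 21.5% and 22.2% in wild-type cells. The numbers that rose are near those shares, and the numbers that fell lie above them. The thymidylate synthase gene Tyms rose by 1.69 in Batf-/- and 1.60 in wild-type cells, and Aldh1l1, which oxidises formyl-folate, by 1.12 in Batf-/- and 1.84 in wild-type cells. Naive means lay below the dim limit of 4.35 for Tyms, at 3.88 in Batf-/- and 4.13 in wild-type cells, and for Aldh1l1 in wild-type cells, at 4.07. Among those that fell were Slc25a32, the mitochondrial folate carrier (-0.99 in Batf-/- and -1.13 in wild-type cells), Fpgs, which adds glutamates that retain folate in the cell (Batf-/- -0.82, wild type -0.97), and the methionine synthase gene Mtr (Batf-/- -0.62, wild type -0.74). Mthfd2l, a mitochondrial relative of Mthfd2 singled out after its values were seen, fell (-0.33 in Batf-/- and -0.51 in wild-type cells). Of 3 glycine cleavage genes, 0 passed in Batf-/- cells, and Gcsh (-0.58) fell in wild-type cells.

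The purine, pyrimidine and methionine lists also held genes of both directions, as all genes together did. Of all genes, 22.5% were called higher and 22.4% lower in Batf-/- cells, and 21.5% and 22.2% in wild-type cells. The purine counts in Batf-/- cells are near those shares, and no list was tested against them. Of 12 purine synthesis genes, 3 rose and 3 fell in Batf-/- cells, and 4 rose and 3 fell in wild-type cells, with medians of -0.10 in Batf-/- and -0.18 in wild-type cells. Gart, which uses formyl-folate, fell (-0.63 in Batf-/- and -0.83 in wild-type cells), as did Atic (Batf-/- -0.43, wild type -0.50), the other formyl-folate step, while Paics rose (Batf-/- 0.50, wild type 0.62). Adssl1, an adenylosuccinate synthase, rose (Batf-/- 2.04, wild type 3.36). Of 14 pyrimidine and thymidylate genes, 4 rose and 5 fell in Batf-/- cells and 4 rose and 4 fell in wild-type cells. Among those that rose was Rrm2, a subunit of ribonucleotide reductase (Batf-/- 2.44, wild type 2.93). Thymidine kinase Tk1 (Batf-/- 2.39, wild type 2.87) and Rrm1 (Batf-/- 1.65, wild type 1.78) rose as well. Dctd (Batf-/- -0.73, wild type -1.03) and Cad (Batf-/- -0.44, wild type -0.76), which starts pyrimidine synthesis, fell. Of 12 genes of the methionine cycle and transsulfuration, 4 rose and 3 fell in Batf-/- cells and 3 rose and 3 fell in wild-type cells. Ahcy, which clears S-adenosylhomocysteine, rose by 1.40 in Batf-/- and 1.36 in wild-type cells, and Mtap, of methionine salvage, fell (Batf-/- -1.13, wild type -1.30).

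Genes of amino acid supply and of the integrated stress response are given next. The shares over all genes were 22.5% higher and 22.4% lower in Batf-/- cells, and 21.5% and 22.2% in wild-type cells. Of 13 other amino acid synthesis genes, 9 rose and 1 fell in Batf-/- cells and 10 rose and 1 fell in wild-type cells, with medians of 0.42 in Batf-/- and 0.57 in wild-type cells. Among those that rose were Bcat1, the cytosolic transaminase of branched-chain amino acids (3.28 in Batf-/- and 3.72 in wild-type cells), whose naive means of 3.30 in Batf-/- and 2.98 in wild-type cells lay below the dim limit of 4.35, and Got1, which makes aspartate (Batf-/- 1.22, wild type 1.5), and glutamine synthetase, Glul, fell (Batf-/- -0.95, wild type -0.59). Of 18 integrated stress response genes, of which Gpt2 is also counted in the amino acid synthesis list and rose, 15 rose and 1 fell in Batf-/- cells and 14 rose and 1 fell in wild-type cells, with medians of 0.57 in Batf-/- and 0.76 in wild-type cells. Atf4 itself rose by 0.49 ± 0.09 in Batf-/- cells (limma adjusted p = 0.000377) and 0.41 ± 0.10 in wild-type cells (limma adjusted p = 0.00345). Vldlr (Batf-/- 4.51, wild type 4.81), Trib3 (Batf-/- 3.56, wild type 3.91) and Ddit4 (Batf-/- 2.04, wild type 2.18) rose, and Ppp1r15a, a phosphatase subunit that ends the response, fell (Batf-/- -1.65, wild type -1.68). The naive means of Vldlr, 4.34 in Batf-/- and 3.95 in wild-type cells, lay below the dim limit of 4.35. The size of a change from such a level is uncertain. Of 19 cytosolic aminoacyl tRNA synthetases, 10 rose and 1 fell in each genotype, with Cars at 1.19 in Batf-/- and 1.36 in wild-type cells and Sars, which charges tRNA with serine, at 0.78 in Batf-/- and 0.88 in wild-type cells. Of 10 genes of serine and asparagine use, 2 rose and 3 fell in Batf-/- cells and 3 rose and 1 fell in wild-type cells. For so few genes these counts are not far from the shares over all genes. Among those that rose was the asparaginase gene Asrgl1 (Batf-/- 1.2, wild type 1.27).

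**Figure D3:**
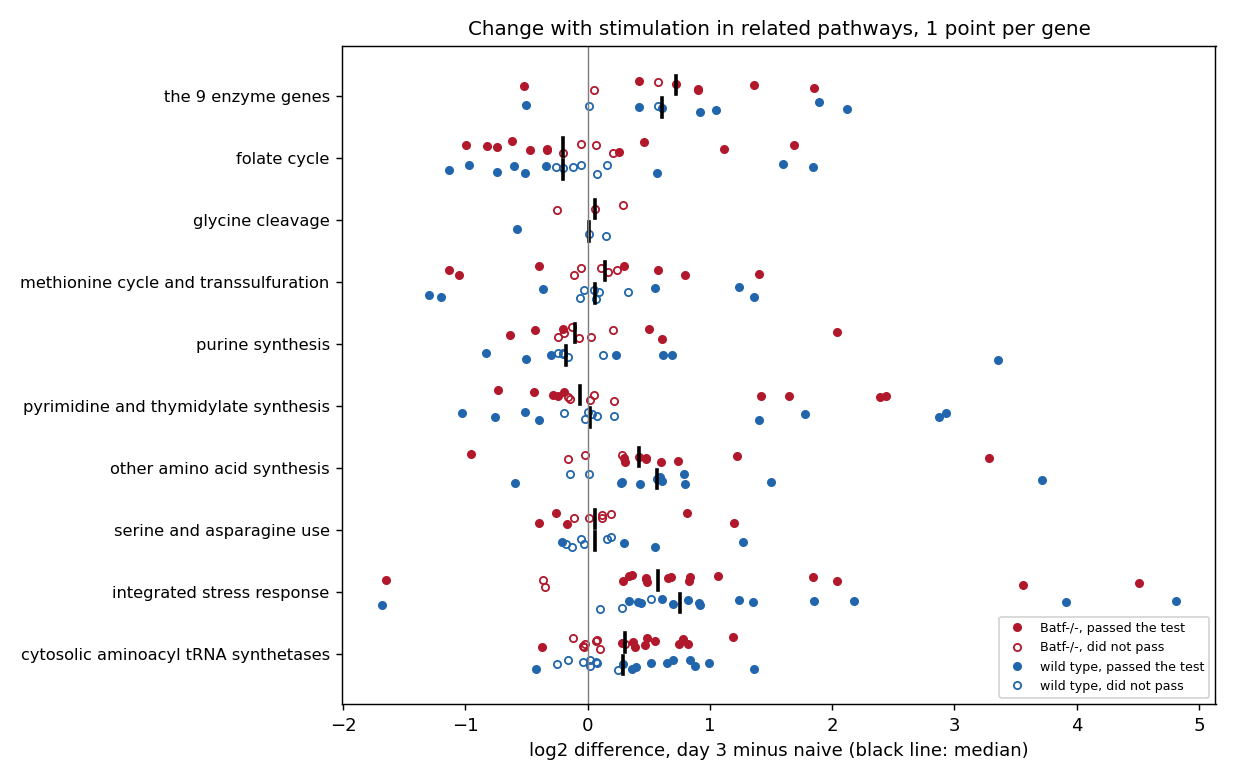
Each point is a gene, by its leading probe set, and the horizontal axis is the log2 difference of day 3 minus naive in Batf-/- and wild-type cells, with a black line at the median of each list. The 9 enzyme genes have medians of 0.72 in Batf-/- and 0.61 in wild-type cells, those of the integrated stress response 0.57 in Batf-/- and 0.76 in wild-type cells, and those of the folate cycle -0.20 in both.

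The comparison of the genotypes asks whether loss of Batf changes these enzymes. None of the 9 genes, and none of the 23 probe sets, passed in Batf-/- against wild-type cells at day 3, where limma called 0.773% of all probe sets and 1.05% of all genes. An unadjusted p under 0.05 was found for 3 of the 23, against 10.7% of all probe sets. At this stage the differences of the leading probe sets were between -0.01 and 0.33, with a median of 0.06 against 0.01 for all genes. The 95% interval of Psat1 was -0.23 to 0.35, that of Phgdh -0.06 to 0.24, that of Psph -0.08 to 0.17, that of Mthfd2 -0.20 to 0.17 and that of Mthfd1l -0.12 to 0.17. For Asns it was -0.68 to 0.80, the widest of the 9.

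Shmt1 had the largest day 3 difference among the 9 genes. Its leading probe set was at 7.61, 7.77, 7.64 and 7.65 in Batf-/- day 3 arrays and at 7.33, 7.33, 7.17 and 7.53 in wild-type day 3 arrays. The groups did not overlap, as was the case for 6 of the 23 probe sets and for 9.83% of all probe sets. The difference was 0.33 ± 0.11 (SE, n = 4 and 4, limma adjusted p = 0.28), and the other 3 Shmt1 probe sets differed by 0.08, 0.27 and 0.21 without passing. With weights for array quality, Shmt1 passed (0.37, limma adjusted p = 0.0324). Mthfd1, at 9.12 to 9.28 in Batf-/- day 3 and 8.96 to 9.12 in wild-type day 3 arrays, differed by 0.18 ± 0.11 (limma adjusted p = 0.635).

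Among naive cells, Mthfd2 stood closest to the threshold. The values given above, 9.08, 8.74 and 8.97 in Batf-/- naive arrays against 8.26 and 8.57 in wild-type naive arrays, did not overlap, and neither did those of the second probe set, 8.24, 8.17 and 8.24 against 7.78 and 7.95. The difference was 0.52 ± 0.11 for the leading probe set (1.43-fold higher, n = 3 and 2, limma adjusted p = 0.0529) and 0.34 ± 0.08 for the other (1.27-fold higher, limma adjusted p = 0.0642). Neither passed. The leading probe set passed under 6 of 10 other settings, among them a fit over genes in place of probe sets (limma adjusted p = 0.0416) and array weights (limma adjusted p = 0.0277), and its adjusted p over the 10 ranged from 0.0248 with an intensity trend to 0.633 with the naive arrays alone. It passed in 2 of 13 fits with 1 array less, without Batf-/- naive replicate 2 (0.61, limma adjusted p = 0.00894) and without wild-type naive replicate 2 (0.67, limma adjusted p = 0.0425). The B cell marker means were 6.94, 6.98 and 7.43 in Batf-/- naive and 6.55 and 6.10 in wild-type naive arrays, and the NK cell marker means were 8.22, 7.36 and 7.63 in Batf-/- naive and 6.70 and 6.51 in wild-type naive arrays. Both were higher in all Batf-/- naive arrays, as Mthfd2 was. Within Batf-/- naive arrays the NK cell means, but not the B cell means, had the same order as Mthfd2. In wild-type naive cells the array with the higher Mthfd2 level had the lower means of both lists. Erythroid means were 6.97, 6.17 and 6.73 in Batf-/- naive and 5.92 and 6.48 in wild-type naive arrays. These, and the means of monocytes, macrophages and dendritic cells given above, had the order of Mthfd2 within each genotype. Neutrophil means had it in Batf-/- but not in wild-type naive arrays. With 3 and 2 arrays such orders agree easily by chance, and the wild-type monocyte, macrophage and dendritic cell means, 6.09 and 6.12, barely differed. Between the naive groups 4 of 9 B cell, 2 of 5 NK cell and 1 of 4 erythroid markers were called higher in Batf-/- cells. None of the 9 neutrophil markers and none of the 9 markers of monocytes, macrophages and dendritic cells was called. The summed B cell marker intensity was 2901 to 4738 in Batf-/- naive and 1555 to 2456 in wild-type naive arrays, with at most 1 marker below the dim limit in Batf-/- naive and 2 in wild-type naive arrays. The part of these cells in the Mthfd2 difference was not tested.

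The other members did not pass in naive cells either, where limma called 0.739% of all probe sets and 0.863% of all genes. An unadjusted p under 0.05 was found for 4 of the 23, against 13.6% of all probe sets. The differences of all 23 probe sets were above 0, from 0.03 to 0.52, with a median of 0.17 against -0.01 for all probe sets. Without Batf-/- naive replicate 1 the median of the 23 was 0.04, and 17 were above 0 and 6 below. Groups did not overlap for 6 of the 23 probe sets and for 24.9% of all. Psat1 differed by 0.33 (95% interval -0.04 to 0.71), Mthfd1l by 0.17 (-0.02 to 0.36), Phgdh by 0.11 (-0.09 to 0.30) and Asns by 0.06 (-0.89 to 1.02). Without Batf-/- naive replicate 1 the Asns difference was -0.60 (limma adjusted p = 0.238), and over all fits without 1 array it had adjusted p between 0.238 and 0.971.

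**Figure D4:**
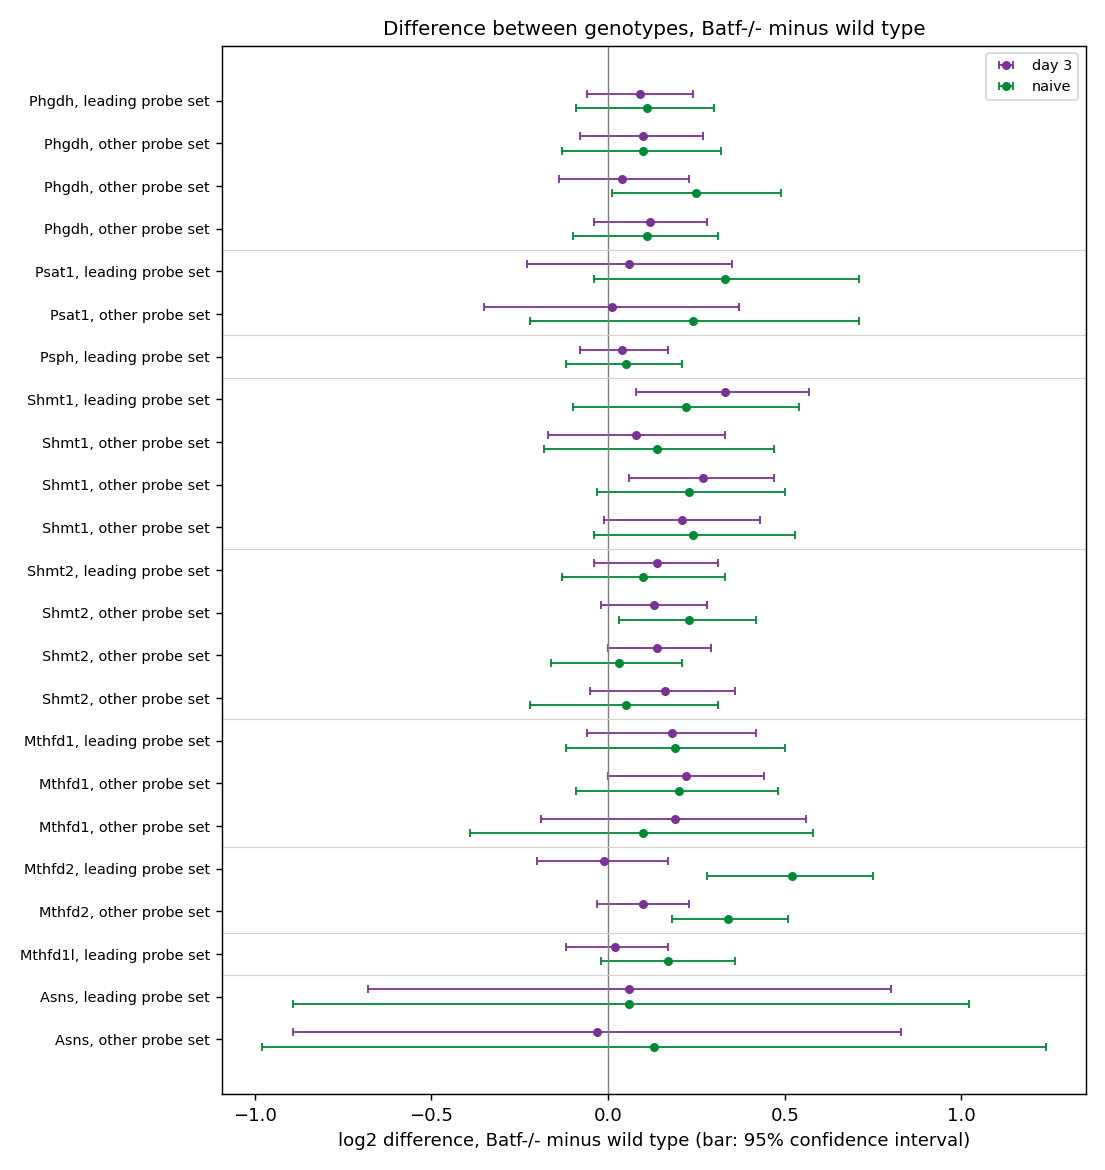
The log2 difference of Batf-/- minus wild type is shown for each of the 23 probe sets at day 3 and in naive cells, with its 95% confidence interval. The 2 naive values of Mthfd2, 0.52 and 0.34, are the 2 largest, and at day 3 the leading Shmt1 probe set is highest at 0.33.

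The difference between the stimulation changes of the genotypes was tested as an interaction. None of the 23 probe sets passed, where limma called 0.306% of all probe sets and 0.434% of all genes. An unadjusted p under 0.05 was found for 2 of the 23, both of Mthfd2, against 11% of all probe sets. The change of Mthfd2 in Batf-/- cells minus that in wild-type cells was -0.53 ± 0.14 for the leading probe set (95% interval -0.83 to -0.23, limma adjusted p = 0.159) and -0.24 ± 0.10 for the other (limma adjusted p = 0.385). It passed in 1 of 13 fits with 1 array less, without Batf-/- naive replicate 2 (-0.63, limma adjusted p = 0.0387). For Psat1 the difference of the changes was -0.28 (-0.75 to 0.19), for Mthfd1l -0.15 (-0.39 to 0.09), for Phgdh -0.01 (-0.26 to 0.23) and for Asns 0.00 (-1.21 to 1.21). These comparisons share arrays with those above, so the values of Mthfd2 in them are the same measurements seen from several sides.

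Between the genotypes most genes of the neighbouring pathways did not pass. At day 3, 2 of 12 methionine cycle and transsulfuration genes passed, 1 of 13 other amino acid synthesis genes and 1 of 18 integrated stress response genes. In naive cells 2 of 15 folate cycle genes passed and 1 of 12 methionine cycle and transsulfuration genes. No other pathway list had a called gene in these comparisons. Over all genes 1.05% were called at day 3 and 0.863% in naive cells. At day 3 the transsulfuration gene Cth, which makes cysteine (-0.63), the methionine salvage gene Adi1 (-0.55), Glul (-0.42) and the stress kinase gene Eif2ak3 (-0.34) were lower in Batf-/- cells, and no gene was higher among the lists. In naive cells Ggh, which removes glutamates from folate (1.25), and Aldh1l1 (0.74) were higher and Adi1 (-0.91) was lower. The change of Aldh1l1 with stimulation differed between the genotypes by -0.72 (limma adjusted p = 0.0267). Cth at day 3 (means of 3.57 in Batf-/- and 4.19 in wild-type cells) lay below the dim limit of 4.35, as did Aldh1l1 in wild-type naive cells. Atf4 differed by -0.05 at day 3 and by -0.12 in naive cells without passing. Myc, which drives growth genes, was lower in Batf-/- naive cells (-0.45 ± 0.09, limma adjusted p = 0.0413), and its difference at day 3 was 0.25 (limma adjusted p = 0.158). The stimulation change of Myc differed between the genotypes by 0.70 ± 0.12 (limma adjusted p = 0.0218), with -0.17 in Batf-/- and -0.87 in wild-type cells.

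The genes whose centred levels lay closest to each member over the 13 arrays were sought among 12010 others. Phgdh lay closest to the transketolase gene Tkt, with a root mean square difference of 0.05 on the log2 scale, and Tmem256 (0.06). Psat1 lay closest to Tex2 (0.11) and the DNA ligase gene Lig1 (0.12), Psph to Sin3b and Nthl1 (0.05 each), and Mthfd2 to Susd3 (0.10) and Aldh7a1 (0.11). Mthfd1l lay closest to the purine salvage gene Hprt (0.06) and Arid5a (0.07), Shmt1 to Psmb2 and Smyd2 (0.12 each), Shmt2 to the asparaginyl tRNA synthetase gene Nars (0.06) and C1d (0.07), and Mthfd1 to Ccdc22 and the chaperone gene Hspa5 (0.08 each). Asns had no gene as near, its closest being C1qtnf12 and Hmgb3 at 0.20.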

How the data were processed

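CD8+ T cell RNA was measured on 13 arrays in 4 groups, taken from the sample titles. The deposited values are probe set intensities on a linear scale, which the authors made with RMA (background correction, normalisation between arrays and combination of probes), per the submitters' processing notes, with no version. Medians lay between 31.5 and 32.5 in all arrays, so the arrays are equalised and a general change in RNA per cell is not visible. The number of arrays limits the precision.

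Here the intensities were converted to log2 without further normalisation. The 64 control probe sets were left out. Of 45101 probe sets, 34958 have 1 gene in the platform table, 932 several and 9211 none, and 34754 were found in the RefSeq table, where 0 symbols differed. Group means were fitted to all 45037 remaining probe sets and 13 arrays with limma 3.58.1 in R 4.3.3 (9 residual and 4.42 prior degrees of freedom), with two-sided moderated tests and Benjamini-Hochberg adjustment over all of them. An adjusted p under 0.05 counts as passed. Dim probe sets were kept. The spread is pooled over the 4 groups, although naive arrays varied more. In simulated data for 45037 probe sets, 100 were changed by 0.5 and 100 by 1 on the log2 scale, with the same noise in all groups. Changes of 0.5 were recovered in 58% of cases between genotypes at day 3 and 28% in naive cells. For stimulation it was 56% in Batf-/- and 36% in wild-type cells. The data had far more stimulation changes, with 17236 probe sets called in Batf-/- and 17402 in wild-type cells, and less even noise. These shares are therefore not the power of the tests on the data.

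The members, gene lists and tests were chosen with earlier results of these data known. Named genes are the 9 members, Batf, Atf4, Myc, up to 3 list members with the largest called change per direction (and called ones against their list's direction) and, per member, the 2 genes with the closest centred profile. Alternatives were another quantile normalisation, median centring, leaving out the dim 40%, fits over genes (leading probe set or mean), an intensity trend, robust estimation, array weights, a replicate block, the compared groups alone and leaving out each array.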

Additional observations from a re-analysis of the deposited data

Results flagged for a closer look

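In groups of 4 arrays, 18 pairs of gene and day 3 group were examined for a single array far from the others, of which chance flags about 1 in 20, and 2 stood out. Psat1 was at 10.53 in wild-type day 3 replicate 4, against 10.82 to 10.86 in the other 3 arrays of that group. Shmt2 was at 8.97 in Batf-/- day 3 replicate 1, against 9.23 to 9.25 in the other 3.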

How the results depend on the processing

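All 7 stimulation calls of member genes held in Batf-/- cells, and between 6 and 8 of 9 genes passed in wild-type cells, when each array was left out in turn (7 to 8 in Batf-/- cells), as did 16 to 18 probe sets in Batf-/- and 14 to 19 in wild-type cells. Under the other settings 7 to 8 genes passed in each genotype, and 16 to 20 probe sets in Batf-/- and 16 to 19 in wild-type cells. The counts between genotypes, 0 as reported, were least settled. At day 3, array weights gave 1 gene (Shmt1) and 2 probe sets, and leaving out arrays gave 0 genes and 0 to 1 probe sets. In naive cells 1 gene (Mthfd2) passed with array weights, an intensity trend, genes by leading probe set, genes by mean, renewed quantile normalisation and without the dim 40%, and 2 probe sets passed under those of these settings that test probe sets. Leaving out arrays gave 0 to 1 genes and 0 to 2 probe sets in naive cells, and 0 to 1 of each for the difference of the changes. Fits over genes give no count of probe sets, and fits of the compared groups alone cannot give the difference of the changes. The numbers of probe sets called in the whole table moved more, between 127 and 1659 at day 3 (348 as reported), 2 and 1623 in naive cells (333) and 47 and 531 for the difference of the changes (138); the causes were not tested.

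Some small differences changed sign, none of them past the threshold. With array weights Asns in naive cells was -0.29, and the difference of the changes was 0.34 for Asns, 0.06 for Mthfd1 and 0.02 for Phgdh. Median centring gave 0.01 for Asns and 0.01 for Psph in the difference of the changes, and gene means gave 0.03 for Mthfd1 in it and 0.04 for Mthfd2 at day 3. Leaving out arrays gave ranges at day 3 of -0.03 to 0.12 for Asns, -0.02 to 0.05 for Mthfd1l, -0.03 to 0.02 for Mthfd2 and -0.02 to 0.09 for Psat1. In naive cells the ranges were -0.60 to 0.51 for Asns and -0.01 to 0.10 for Psph. For the difference of the changes they were -0.45 to 0.66 for Asns, -0.16 to 0.17 for Mthfd1, -0.08 to 0.06 for Phgdh, -0.06 to 0.05 for Psph, -0.05 to 0.24 for Shmt1 and 0 to 0.10 for Shmt2. For stimulation they were -0.08 to 0.22 for a Shmt1 probe set in Batf-/- cells and -0.04 to 0.05 for Shmt2 in wild-type cells. The causes were not tested.

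Groups share replicate numbers, and the labels do not say whether these pair the arrays. Deviations from the group means correlated between -0.2 and 0.05 in the 16 same-numbered pairs. In groups of 2 to 4 arrays this shows no pairing but cannot exclude it. With the number as a replicate block, 16 member probe sets passed in each genotype for stimulation, a Mthfd1 probe set being lost in both, and 0 in the other comparisons. The block gave 0 for Shmt2 in wild-type cells and 0.02 for Psph in the difference of the changes.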
